A study of Mus musculus with 31 samples.

Results

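Polyamine synthesis and its antizyme control were followed in polysomal RNA and matched total mRNA through 9 genes, chosen by symbol from the 41255 rows of each gene table. Odc1, Amd1, Srm and Sms encode the enzymes of synthesis, Sat1 and Smox enzymes of breakdown, and Oaz1, Oaz2 and Azin1 the antizymes and the antizyme inhibitor. All 9 had a mean normalized read count of at least 10 in both tables, so that none was lost to the filter on low values. Smox passed it in polysomal RNA only through R98S, where its mean was 36.3 against 8.87 in WT.

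Polyamines are small cations that bind RNA and are needed for growth and protein synthesis. Ornithine decarboxylase (Odc1) makes putrescine, S-adenosylmethionine decarboxylase (Amd1) supplies the aminopropyl groups, and spermidine synthase (Srm) and spermine synthase (Sms) add them in turn. Spermidine/spermine N1-acetyltransferase (Sat1) marks polyamines for export or oxidation, and spermine oxidase (Smox) turns spermine back into spermidine. Antizymes (Oaz1, Oaz2) bind ornithine decarboxylase, send it to the proteasome and lower polyamine uptake, while the antizyme inhibitor (Azin1), a decarboxylase relative without enzyme activity, takes antizyme away from it. The family is known for control by translation: polyamines favour a +1 frameshift that is needed to make full-length antizyme, and they repress Amd1 through a short upstream open reading frame.

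All samples were Ba/F3 cells, an IL-3-dependent mouse lymphoid line, in which endogenous Rpl10 had been lowered by an shRNA and a retrovirus supplied human RPL10 cDNA, either WT or with the R98S change. Each of the 6 clones grew from a single cell: clones 11, 13 and 35 carried R98S, and clones 28, 29 and 36 carried WT. Polysomal libraries hold mRNA pooled from gradient fractions with at least a pair of ribosomes per transcript, and total mRNA came from matched cultures. Total mRNA was sequenced in 9 libraries of R98S and 8 of WT, and polysomal RNA in 8 of R98S and 6 of WT, numbered 1 to 3 as replicates by the labels, with 14 matched pairs. Libraries of a clone are repeated cultures of the same cells, so that 3 clones stand for each genotype.

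Libraries held 8831180 to 22059792 reads. Rpl10, whose row can also take reads of the human cDNA, ran from 620 to 5715 normalized counts in WT and from 901 to 2984 in R98S total mRNA, so it does not read the knockdown. In polysomal RNA it was lower in R98S (666 to 2046 against 1099 to 5567, limma adjusted p = 0.0490). Of 11 genes fixed as markers of an IL-3-dependent pro-B line, 6 had a mean of at least 10 in each group, with Csf2rb, the IL-3 receptor beta chain, from 28600 to 54060 in WT and from 59640 to 119300 in R98S total mRNA. In total mRNA their summed level was higher in R98S without overlap (110200 to 222400, against 56840 to 102200 in WT). Most of it was Csf2rb and Csf2rb2, with medians of 41160 and 30300 in WT against 95720 and 74860 in R98S. Il3ra, Cd79a and Cd79b had higher medians in R98S but overlapped between the genotypes. Ptprc overlapped too and had a lower median in R98S (3928 against 5789). The polysomal sums overlapped, with a WT maximum of 70390 above the R98S minimum of 44850. The defining B-lineage factors Pax5 and Ebf1 were at 0 or near 0, at most 1.00 in total mRNA. Summed T cell markers (4 genes) were at most 189 and summed myeloid markers (4 genes) at most 407 in total mRNA, with group medians of 37.6 and 65.5 in WT and of 4.51 and 7.15 in R98S. Summed erythroid markers (2 genes) were at most 429 in WT and 306 in R98S total mRNA, with medians of 114 and 14.5. In WT polysomal RNA their highest sum was 938. Summed fibroblast markers (3 genes) were at most 11.0. The part of these cell types in the results was not tested. In these bulk libraries fewer cells of a type and less RNA per cell cannot be told apart.

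The sequences through which translation of these genes is known to be controlled are short. Those of the 3 best-known cases are shown because the polysomal data bear on the same transcripts. They were read from the GENCODE M21 transcripts on GRCm38 (mm10). In the Amd1 upstream open reading frame (chr10:40302155-40302175, minus strand, in the 5′ untranslated part of exon 1) capitals mark the start and stop codons. In the antizyme sites, which lie in coding exons on the plus strand (Oaz1 at chr10:80828283-80828309, Oaz2 at chr9:65686260-65686286), capitals mark the last codon before the shift and the stop codon that the shifted ribosome passes over.
Amd1 upstream open reading frame: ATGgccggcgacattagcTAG
Oaz1 shift site: cggtggtgcTCCTGAtgtccctcaccc
Oaz2 shift site: ctgtggtgcTCCTGAtgcccctcaccc

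The Amd1 frame spans 6 codons before its stop, begins 11 bases after the annotated 5′ end and lies 296 bases before the main start codon. The Oaz1 and Oaz2 sites are identical at 25 of 27 bases. In the annotated transcripts 68 codons precede the stop codon of the first frame in Oaz1 and 32 in Oaz2, and 159 and 157 codons follow in the shifted frame. Upstream ATG triplets are not particular to Amd1 among these genes. The principal transcripts of Odc1 (2), Amd1 (1), Sms (4), Sat1 (2) and Azin1 (3) hold at least 1 in the 5′ leader, whereas those of Srm, Oaz1, Oaz2 and Smox hold none. The E-box CACGTG, a palindrome bound by Myc and related factors, was present in 1 of the 8 RefSeq promoter windows found for 7 of the genes (GRCm38), a window of Sms, against 7.15% of 32851 windows of the same length.

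The genes differ in how safely reads can be assigned to them. Amd1 (chr10:40287458-40302186) is the extreme case, with 78.1% of its 50-base windows also present in transcripts of other genes, mainly its retrogene copy Amd2. This share was 24.3% for Odc1 (chr12:17544794-17551505), 21.0% for Oaz1 (chr10:80826656-80829290), 17.5% for Sms (chrX:157443855-157492287) and 7.4% for Oaz2 (chr9:65668001-65690300). It was 2.7% for Sat1 (chrX:155213132-155216449), 2.0% for Srm (chr4:148591503-148594993) and 0 for Smox (chr2:131491496-131525922). Azin1 (chr15:38487427-38519266) shares no such window but overlaps the opposite-strand gene Gm49077 over 5.7% of its exon bases. Reads of Amd1 and Amd2 may therefore be split or lost, and values of Amd1 are given with this reservation.

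Per kilobase of merged exons, the most abundant of the 9 in WT total mRNA was Oaz1, with a median of 1847 normalized counts per kilobase and a range of 1217 to 2517. Sat1 (1034), Odc1 (941), Azin1 (586), Srm (585), Sms (498), Oaz2 (377) and Amd1 (306) followed in this order, and each of these neighbours overlapped the next in its range over libraries. Smox stood apart at 3.07 per kilobase, with its highest library (7.27) far below the lowest of Amd1 (250). In R98S total mRNA Oaz1 was again first (2282 per kilobase), here without overlap with Odc1 in second place (1293), and Smox was last (3.18). The antizyme transcript thus exceeded that of the decarboxylase it binds in both groups on the per-kilobase scale of total mRNA, by medians, with ranges that overlapped in WT only.

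**Figure D1:**
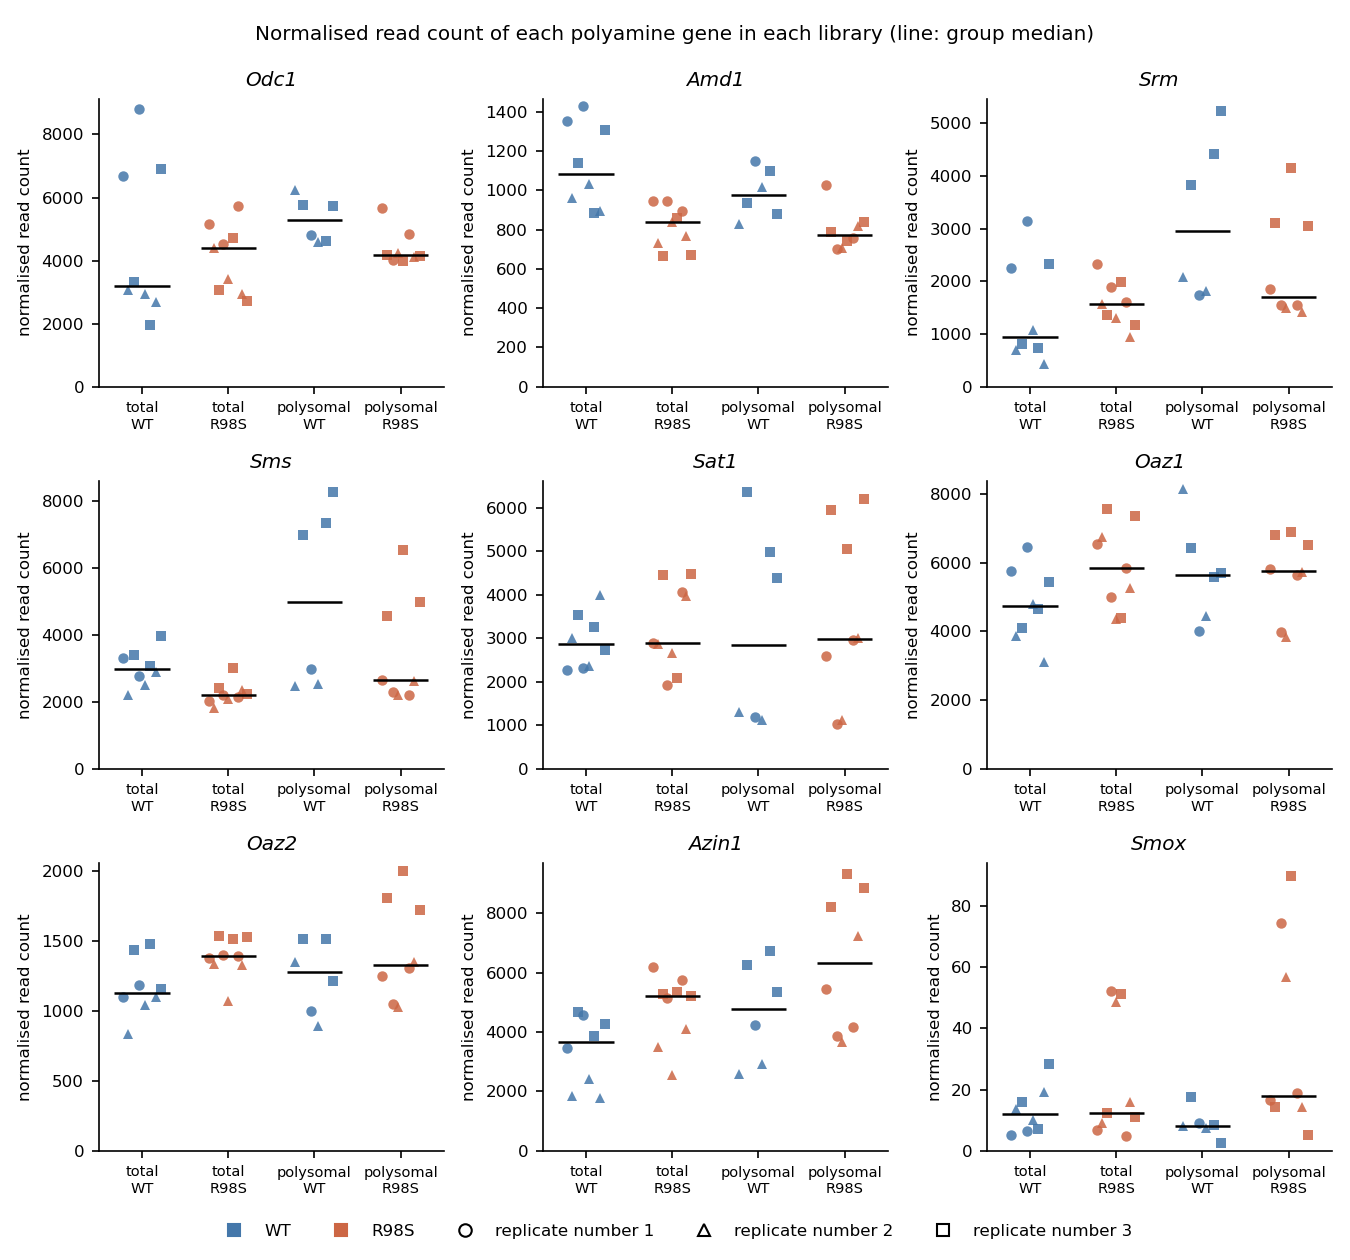
Normalized read count (y axes, linear from 0) of each of the 9 polyamine genes in each of the 31 libraries, grouped by fraction and genotype on the x axes; marker shape gives the replicate number and the line the group median. Amd1 and Sms sit lower in R98S total mRNA, Azin1 higher, and the polysomal values of Sms and Sat1 split by replicate number in both genotypes.

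The comparison of R98S with WT in total mRNA asks which transcripts differ in abundance between the genotypes. In total mRNA, Amd1 and Sms were lower and Oaz2 and Azin1 were higher in R98S, so that 4 of the 9 genes passed limma's test at an adjusted p under 0.1 and 5 did not. Over all genes 30.3% of 11133 were called, so a share of 4 in 9 stands near the background for a list this short. The median log2 fold change of the 9 was 0.26, against 0.00 over all genes tested.

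Amd1, the decarboxylase that feeds both aminopropyl transfers, had a lowest, median and highest value of 666, 839 and 946 in R98S and of 884, 1085 and 1430 in WT total mRNA. The groups overlapped only between 884 and 946. The log2 fold change was -0.46 ± 0.12 (SE, 95% interval -0.70 to -0.21, limma adjusted p = 0.0086), a level 0.729 times that of WT. Sms, the last enzyme of the pathway, ranged from 1828 through 2211 to 3025 in R98S and from 2199 through 2994 to 3955 in WT. Its log2 fold change was -0.41 ± 0.11 (limma adjusted p = 0.0142).

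Azin1, which frees ornithine decarboxylase from antizyme, ranged from 2540 through 5214 to 6184 in R98S and from 1793 through 3666 to 4662 in WT total mRNA. The log2 fold change was 0.55 ± 0.22 (limma adjusted p = 0.0750), a level 1.47 times that of WT. Oaz2, the less abundant antizyme, ranged from 1072 through 1390 to 1531 in R98S and from 835 through 1128 to 1476 in WT. Its log2 fold change was 0.26 ± 0.11 (limma adjusted p = 0.0851). The calls of Amd1 and Sms were each kept in 33 of 34 alternative settings that pool the replicate numbers, whereas that of Azin1 was kept in 17 and that of Oaz2 in 13, with adjusted p from 0.00138 to 0.202 for Azin1 and from 0.0170 to 0.248 for Oaz2. Within number 1 alone Amd1, Sms and Azin1 passed (limma adjusted p = 0.0355, 0.0574 and 0.0931), as did Odc1 (-0.59, limma adjusted p = 0.0776), against 12.3% of all genes. Within number 2 or 3 none of Amd1, Sms, Oaz2 and Azin1 did (0.130 to 0.530), where 2.16% and 9.40% of all genes were called. Among the 34 settings, leaving out R98S clone 11 or 35 or WT clone 28 or 36 ended the calls of Oaz2 and Azin1. In these fits 1895, 2984, 2213 and 2818 of all 11133 genes were called, against 3369 in the main fit. Leaving out replicate number 3 left 1 gene of the 9 called (Sms), with 1338 of all genes called. Leaving out number 1 ended the calls of Sms, Oaz2 and Azin1, with 2650 of all genes called. In these settings fewer genes were called than in the main fit, but not in every setting that lost a call. The call of Oaz2 also ended without the number 1 library of WT clone 28 or the number 3 library of WT clone 36. There 3455 and 3392 of all genes were called.

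The other 5 genes did not pass. Odc1, the first and rate-limiting enzyme, ranged from 2709 through 4404 to 5718 in R98S and from 1950 through 3205 to 8796 in WT total mRNA. The spread in WT was wide: both libraries with replicate number 1 (6673 and 8796) and that of clone 36 with number 3 (6913) stood above the rest. The log2 fold change of -0.02 has an interval of -0.57 to 0.54. Srm behaved alike, from 934 through 1562 to 2322 in R98S and from 433 through 935 to 3149 in WT, with a log2 fold change of 0.40 (interval -0.29 to 1.09). Oaz1, the main antizyme, ranged from 4349 through 5837 to 7564 in R98S and from 3114 through 4724 to 6439 in WT, and its log2 fold change of 0.31 (interval 0.00 to 0.62) had an adjusted p of 0.139 in limma. Sat1 and Smox had log2 fold changes of 0.12 (interval -0.25 to 0.49) and 0.49 (interval -0.51 to 1.49).

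No gene of the 9 had total mRNA libraries of the genotypes that did not overlap, where 3.53% of all genes did. The means of the 3 clones did not overlap for 5 genes, namely Odc1, Amd1 and Sms, lower in R98S, and Oaz2 and Azin1, higher, against 38.9% of all genes. Libraries with the same replicate number deviated together, so genotypes were also compared within each number. R98S total mRNA values of Amd1 lay below all WT values within each of the 3 numbers, and those of Azin1 lay above all WT values within each, as was so in 1 direction or the other for 8.18% of all genes. For Amd1 the log2 fold change within numbers 1, 2 and 3 was -0.58, -0.30 and -0.59, and for Azin1 it was 0.52, 0.72 and 0.31. For Sms it was -0.52, -0.27 and -0.45, and for Oaz2 0.28, 0.33 and 0.17. Odc1 gave -0.59 within number 1, 0.29 within number 2 and -0.07 within number 3, and Srm -0.47, 0.85 and 0.40, so that neither kept a direction. With the replicate number as a block in limma, 38.4% of all genes and 4 of the 9 were called, again Amd1, Sms, Oaz2 and Azin1.

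The comparison in polysomal RNA asks which transcripts are more or less abundant among those on ribosomes. Of the 9 genes, 0 passed limma's test at an adjusted p under 0.1, against 13.5% of the 10707 genes tested, and 2 of them (Amd1 and Smox) had an unadjusted p under 0.05. On the same reads edgeR called 1 (Smox) and DESeq2 called 2 (Smox and Amd1), against 13.5% and 17.8% of all genes. The calls of Smox in polysomal RNA, here and with the block, are of a gene that entered the comparison through its R98S values and are given as a description. Polysomal values split strongly by replicate number, and with this number as a block 6 of the 9 genes passed, against 30.9% of all genes. The 4 synthesis enzymes were lower in R98S in that fit, and Azin1 and Smox were higher.

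In polysomal RNA Odc1 ranged from 3993 through 4164 to 5668 in R98S and from 4589 through 5284 to 6242 in WT. Its log2 fold change was -0.27 (interval -0.56 to 0.03) without the block and -0.29 ± 0.12 with it (limma adjusted p = 0.287 and 0.0976). Amd1 ranged from 702 through 774 to 1028 in R98S and from 827 through 977 to 1151 in WT, with log2 fold changes of -0.30 ± 0.13 and -0.33 ± 0.12 (limma adjusted p = 0.197 and 0.0590). Within each of the 3 replicate numbers all R98S polysomal values of Amd1 lay below all WT values, which was so in 1 direction or the other for 13.0% of all genes.

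Srm and Sms had the widest spread of the synthesis enzymes in polysomal RNA. Srm ranged from 1416 through 1705 to 4148 in R98S and from 1731 through 2956 to 5226 in WT, and Sms from 2207 through 2644 to 6549 in R98S and from 2487 through 4990 to 8288 in WT. In both genotypes the highest values were the libraries with number 3. Without the block the log2 fold changes were -0.46 ± 0.32 and -0.47 ± 0.35 (limma adjusted p = 0.469 and 0.509). With it they were -0.33 ± 0.12 for each (limma adjusted p = 0.0594 and 0.0599), so that the estimates came closer to 0 and their errors fell by more.

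Azin1 ranged from 3648 through 6333 to 9315 in R98S and from 2571 through 4788 to 6717 in WT polysomal RNA. Its log2 fold change was 0.44 (interval -0.18 to 1.06) without the block and 0.54 ± 0.16 with it (limma adjusted p = 0.434 and 0.0241), close to the difference in total mRNA. Oaz1 ranged from 3836 through 5768 to 6885 in R98S and from 4021 through 5632 to 8130 in WT, with a log2 fold change of -0.01 (interval -0.42 to 0.41). The highest WT value was the library of clone 28 with number 2. Oaz2 and Sat1 had log2 fold changes of 0.20 (interval -0.21 to 0.60) and 0.21 (interval -0.89 to 1.32) and were not called with the block either (limma adjusted p = 0.141 and 0.242). No gene of the 9 had polysomal libraries of the genotypes that did not overlap, against 4.96% of all genes. Clone means did not overlap for Srm and Sms, lower in R98S, and for Azin1, higher, against 28.5%. Those of Smox, higher in R98S, did not overlap either, which is a description, since Smox passed the filter through R98S.

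The calls in polysomal RNA rest on how the replicate number is treated. Over the 30 alternatives the limma, edgeR or DESeq2 adjusted p ran from 0.0976 to 0.628 for Odc1, from 0.0590 to 0.629 for Amd1, from 0.0594 to 0.750 for Srm, from 0.0599 to 0.841 for Sms and from 0.0241 to 0.799 for Azin1. For Odc1, Srm, Sms and Azin1 the block was the only one of these 30 settings with a call. Within number 3 alone, which is not among the 30, Azin1 and Sms passed as well (limma adjusted p = 0.0421 and 0.0798), against 20.9% of all genes.

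**Figure D2:**
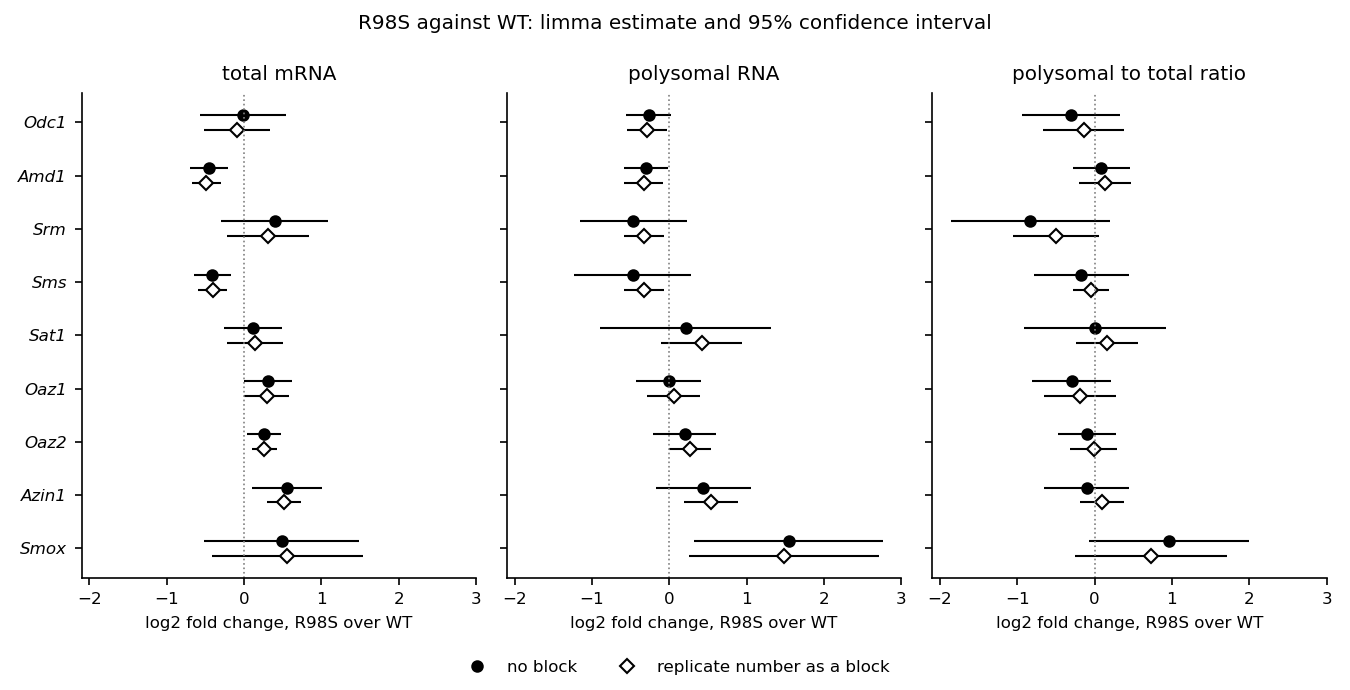
Log2 fold change of R98S over WT (x axes, shared scale) for each of the 9 genes in total mRNA, polysomal RNA and the polysomal to total ratio; points are limma estimates and lines 95% confidence intervals, filled without a block and open with the replicate number as a block. Amd1 and Sms lie left of 0 and Azin1 right of it in total mRNA in both fits, and in polysomal RNA the intervals of Odc1, Srm and Sms exclude 0 only with the block, that of Amd1 in both fits.

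The polysomal to total ratio of a culture asks how strongly a transcript is represented on polysomes for its abundance. The tables were normalized separately, so a ratio has no absolute zero, and it is given as a log2 difference from the median gene of the same culture. In WT cultures 6 of the 9 genes lay above the median gene (limma adjusted p under 0.1), none below, and 3 were not called. With clone means as the unit Smox lay below it in WT (-0.75, limma adjusted p = 0.0434, with 0.0434 to 0.912 over 16 alternatives). In that setting 67.0% of all genes were called. Clone 36 has a single culture, at -2.67 on 2 polysomal reads, and without this clone the WT estimate over cultures was 0.25, above the median gene. In R98S cultures 7 lay above, none below, and 2 were not called. The 7 include Smox, which passed the filter through R98S, and are 6 without it. Over all 10627 genes 59.2% were called in WT, 30.7% being higher, and 65.2% in R98S, 33.0% being higher.

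Among the synthesis enzymes Srm had the highest mean ratio in WT, 1.57 ± 1.24 (SD, n = 6), which stood above 98.5% of all genes tested (limma adjusted p = 0.0285). Its ratio ran from -0.55 through 1.69 to 2.93 in WT and from -0.11 through 0.69 to 1.65 in R98S, where the mean was 0.74 ± 0.71 (SD, n = 8, above 87.7% of genes). Sms had ratios from 0.34 through 0.93 to 1.59 in WT and from 0.29 through 0.52 to 1.44 in R98S. It was above the median gene in all 14 cultures, with means of 0.93 and 0.76 (limma adjusted p = 0.0164 and 0.00456). Odc1 had ratios from -0.55 through 1.05 to 1.58 in WT and from 0.01 through 0.48 to 0.90 in R98S, with means of 0.75 and 0.44 (limma adjusted p = 0.0433 and 0.0137). Amd1 sat near the median gene, with means of 0.14 ± 0.30 (SD, n = 6) in WT and 0.23 ± 0.27 (SD, n = 8) in R98S. It was called only in R98S (limma adjusted p = 0.0895). Over 16 alternatives that pool the replicate numbers, the WT calls were kept in 14 for Srm, 14 for Sms and 9 for Odc1. Over 18 such alternatives in R98S, calls were kept in 16 for Srm, 18 for Sms, 15 for Odc1 and 7 for Amd1.

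Of the control genes, Azin1 was above the median gene in both genotypes, with mean ratios of 0.68 ± 0.30 (SD, n = 6) in WT and 0.58 ± 0.59 (SD, n = 8) in R98S. Its ratio ran from 0.21 through 0.70 to 1.13 in WT and from -0.22 through 0.86 to 1.13 in R98S. Oaz1 had ratios from -0.36 through 0.50 to 1.35 in WT and from -0.06 through 0.12 to 0.98 in R98S. Its means were 0.53 (limma adjusted p = 0.0653) and 0.24 (limma adjusted p = 0.111). Oaz2 was above the median gene in 6 of 6 WT and 7 of 8 R98S cultures, with means of 0.39 and 0.29 (limma adjusted p = 0.0752 and 0.0418). Over the 16 WT alternatives the calls were kept in 13 for Azin1, 6 for Oaz1 and 6 for Oaz2. Over the 18 in R98S they were kept in 14 for Azin1 and 11 for Oaz2. Sat1 was at 0.14 in WT and 0.15 in R98S, with SDs of 1.01 and 0.84, and Smox at -0.24 and 0.72.

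Without the centring the median gene lay between -0.36 and -0.21 in the single cultures, and 2 of the 9 genes (Srm and Sms) were called in each genotype, with 14.6% of all genes called higher in WT and 17.3% in R98S. Leaving out WT clone 28, whose 2 cultures are among the 6, left 0 of the 9 called in WT by limma, as well as 0 of all genes called higher. Leaving out replicate number 3 left 0 of all 10627 genes called in WT, with 1583 at an unadjusted p under 0.05. Without the number 3 library pair of WT clone 28 or of clone 29, or without number 2, 3 of the 9 were called in WT, with 37.8%, 39.2% and 63.0% of all genes called. In R98S 3 of the 9 were called on leaving out clone 35 (44.2% of all genes). On leaving out clone 11, number 2 or number 3 it was 4 (53.2%, 63.2% and 50.5%). The genes called without number 3 include Sat1, which lay below the median gene there (-0.38, limma adjusted p = 0.0956) and was not called in the main fit.

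**Figure D3:**
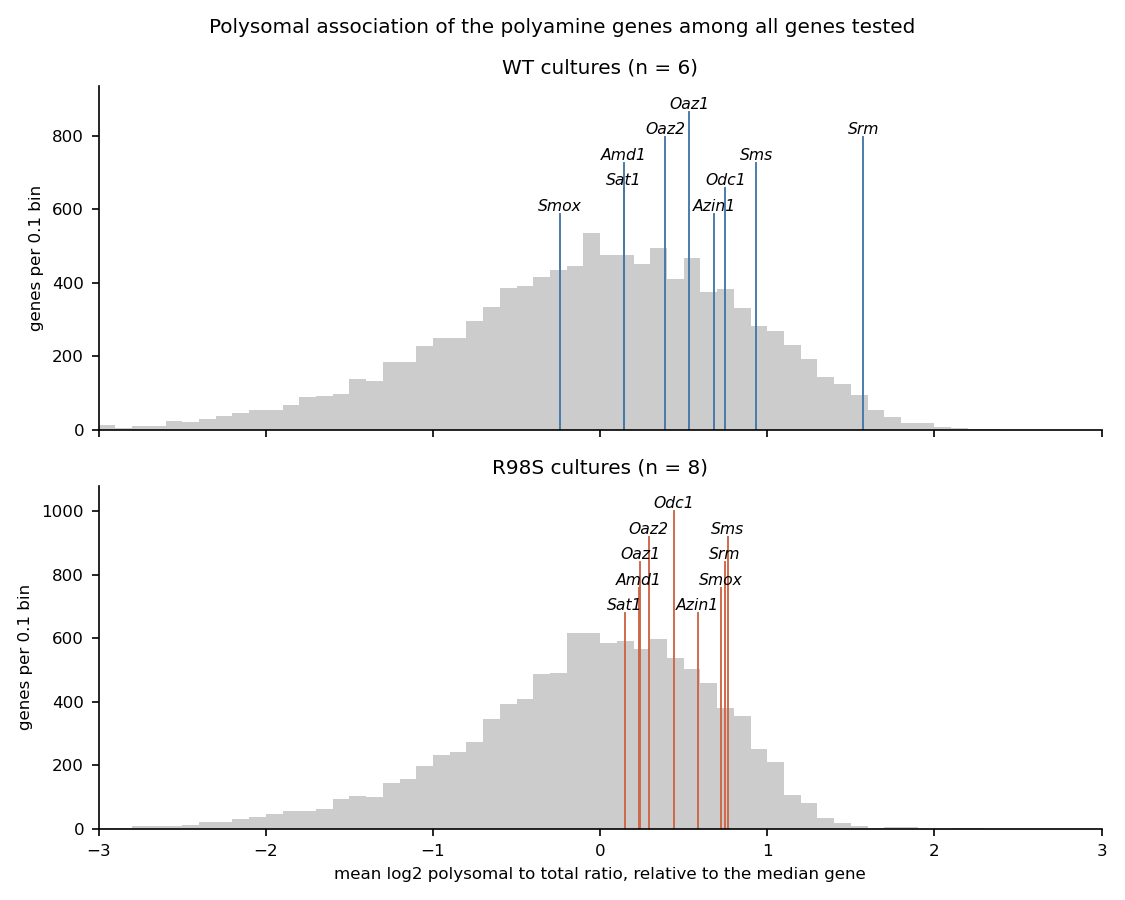
Distribution of the mean log2 polysomal to total ratio over all 10627 genes tested (grey bars of width 0.1, y axes in genes) in 6 WT and 8 R98S cultures, relative to the median gene at 0, with the mean of each polyamine gene as a vertical line. Srm lies near the upper end in WT (1.57) and among the other enzymes in R98S (0.74), and Amd1 and Sat1 lie close to the median gene in both.

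Ratios of several genes depended on the replicate number in both genotypes alike. Sms ran from 0.29 to 0.62 in the 4 cultures with number 1, from 0.34 to 0.46 in the 4 with number 2 and from 1.22 to 1.59 in the 6 with number 3. Sat1 ran from -0.64 to 0.06, from -0.97 to -0.12 and from 0.71 to 1.61. In these 2 genes all cultures with number 3 lay above all others, as they did for 14.6% of all genes, so this is no property of the polyamine genes alone. For Sat1 the mean near 0 is therefore an average of cultures below and cultures above the median gene. Srm had medians of -0.07, 0.98 and 1.58 with numbers 1, 2 and 3, and Azin1 was near 0 with number 1 (median -0.06) and between 0.57 and 1.13 with numbers 2 and 3.

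For Sms and Sat1 the rise with number 3 lay in the polysomal values more than in total mRNA. WT polysomal Sms averaged 2979 (1 library), 2518 and 7548 with numbers 1, 2 and 3, and WT total mRNA Sms 3047, 2536 and 3485. For Sat1 the WT polysomal means were 1195, 1211 and 5253 and the total mRNA means 2300, 3123 and 3184. In R98S number 3 was again the highest, with Sms at 2387, 2418 and 5369 and Sat1 at 2191, 2062 and 5743 in polysomal RNA. Srm differed: its WT means with numbers 1, 2 and 3 were 1731, 1947 and 4494 in polysomal RNA. In total mRNA they were 2702, 730 and 1286, so numbers 1 and 2 differed more in total mRNA. The labels give numbers only, and what differed between them in handling was not tested.

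**Figure D4:**
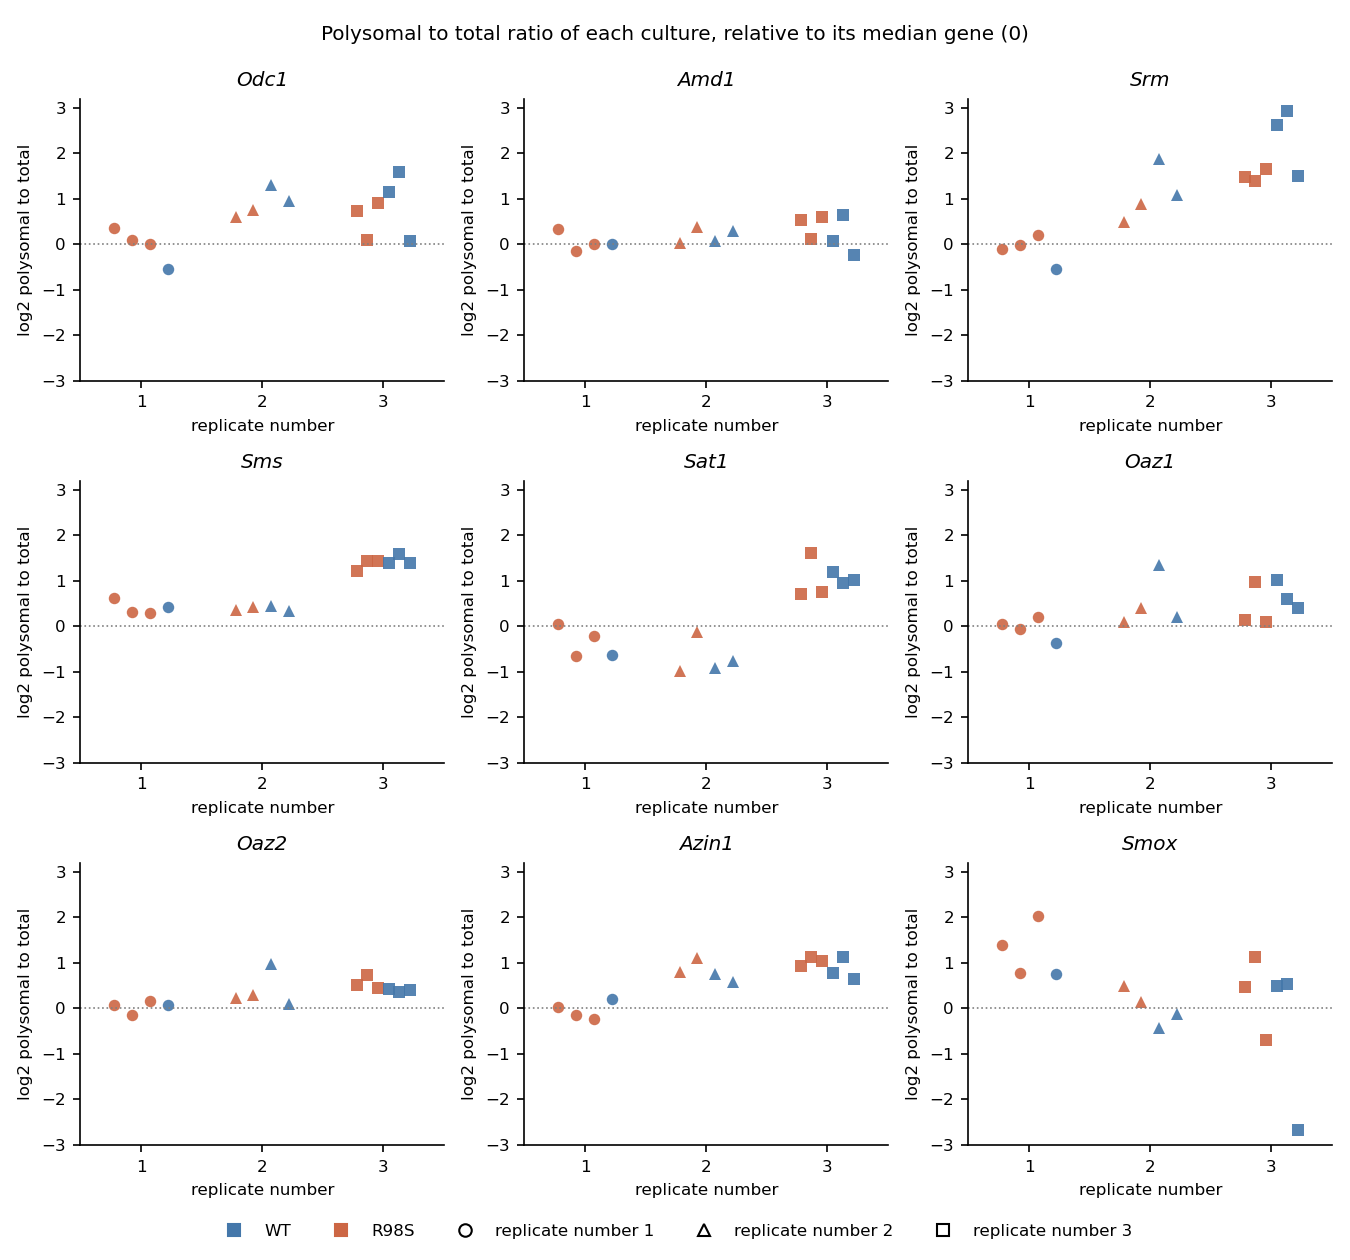
Log2 polysomal to total ratio (y axes, 0 is the median gene of the culture) of each polyamine gene in the 14 matched cultures by replicate number (x axes); blue is WT and orange R98S. Sms and Sat1 lie higher with number 3 than with numbers 1 and 2 in both genotypes, Srm differs between all 3 numbers by median, and WT clone 36 stands low for Smox at -2.67.

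The difference of the ratios between R98S and WT asks whether polysomal association changed beyond mRNA abundance, and 0 of the 9 genes passed limma's test, where 0.0282% of all genes (3 of 10627) did. None of the 9 had an unadjusted p under 0.05, and edgeR on the reads of both fractions called 0 too. With the replicate number as a block 0.414% of all genes and 0 of the 9 were called. Azin1, called in total mRNA, had a ratio difference of -0.10 (interval -0.65 to 0.45), and Amd1 one of 0.09 (interval -0.28 to 0.46). For Sms it was -0.17 (interval -0.79 to 0.45), for Oaz2 -0.10 (interval -0.48 to 0.28) and for Oaz1 -0.29 (interval -0.81 to 0.22). For Odc1 and Sat1 it was -0.31 (interval -0.94 to 0.33) and 0.01 (interval -0.91 to 0.92). Within number 1, with a single WT culture and no test, the difference was 0.70 for Odc1 and 0.42 for Oaz1, opposite to the pooled sign. The intervals of the first 5 genes reach down to -0.81 and up to 0.46 on the log2 scale, so the missing calls do not show equal association.

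The largest ratio differences were those of Srm and Smox. The ratio of Srm was lower in R98S by 0.83 (log2 difference -0.83, interval -1.86 to 0.20, unadjusted p = 0.107, limma adjusted p = 0.825). With the replicate block it was -0.50, and leaving out libraries, clones or numbers gave -1.25 to -0.50. Within numbers 2 and 3 the differences were -0.79 and -0.84. Within number 1 the single WT culture (-0.55) lay below the R98S mean of 0.02, a difference of 0.57. The ratio of Smox was higher in R98S by 0.96 (interval -0.07 to 1.99, limma adjusted p = 0.768). Clone means of the ratio did not overlap for these 2 genes, against 17.2% of all genes, and for Smox this is a description, since it passed the filter through R98S. No gene of the 9 had cultures that did not overlap, against 0.179%.

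Smox, spermine oxidase, was a low gene whose level followed 1 clone. In total mRNA the libraries of R98S clone 13 held 48.6 to 52.1 normalized counts, and those of the other R98S clones 4.77 to 16.0. WT libraries ran from 5.24 to 28.3, with the highest pair in clone 36 (19.1 and 28.3). In polysomal RNA R98S clone 13 had 56.7 to 89.7, the other R98S clones 5.14 to 19.0 and WT 2.64 to 17.6. These values rest on 4 to 66 reads per library in total mRNA and on 2 to 116 in polysomal RNA, so counting error adds to the spread. The log2 fold change in polysomal RNA was 1.54 ± 0.57 (limma adjusted p = 0.114) and 1.48 with the replicate block (limma adjusted p = 0.0770), with adjusted p from 0.00709 to 0.504 over 30 alternatives. Without clone 13 it was 0.64, and in total mRNA it turned from 0.49 to -0.29.

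Sat1 also differed between the R98S clones. Its total mRNA values were 1929 to 2664 in clone 13, 2868 to 4452 in clone 11 and 3982 to 4490 in clone 35, and WT libraries ran from 2279 to 4007. Clone 13 was likewise the lowest R98S clone for Oaz1, with 4349 to 4985 in total mRNA against 5261 to 7564 in clones 11 and 35. Leaving out clone 13, the log2 fold change of Oaz1 in total mRNA was 0.48 and passed limma's test (adjusted p = 0.0315, with 0.0315 to 0.521 over the 34 settings that pool replicate numbers and up to 0.782 within a single number). Without clone 13, 27.0% of all genes were called. In total mRNA Smox was high and Sat1 and Oaz1 were low in the same clone.

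**Figure D5:**
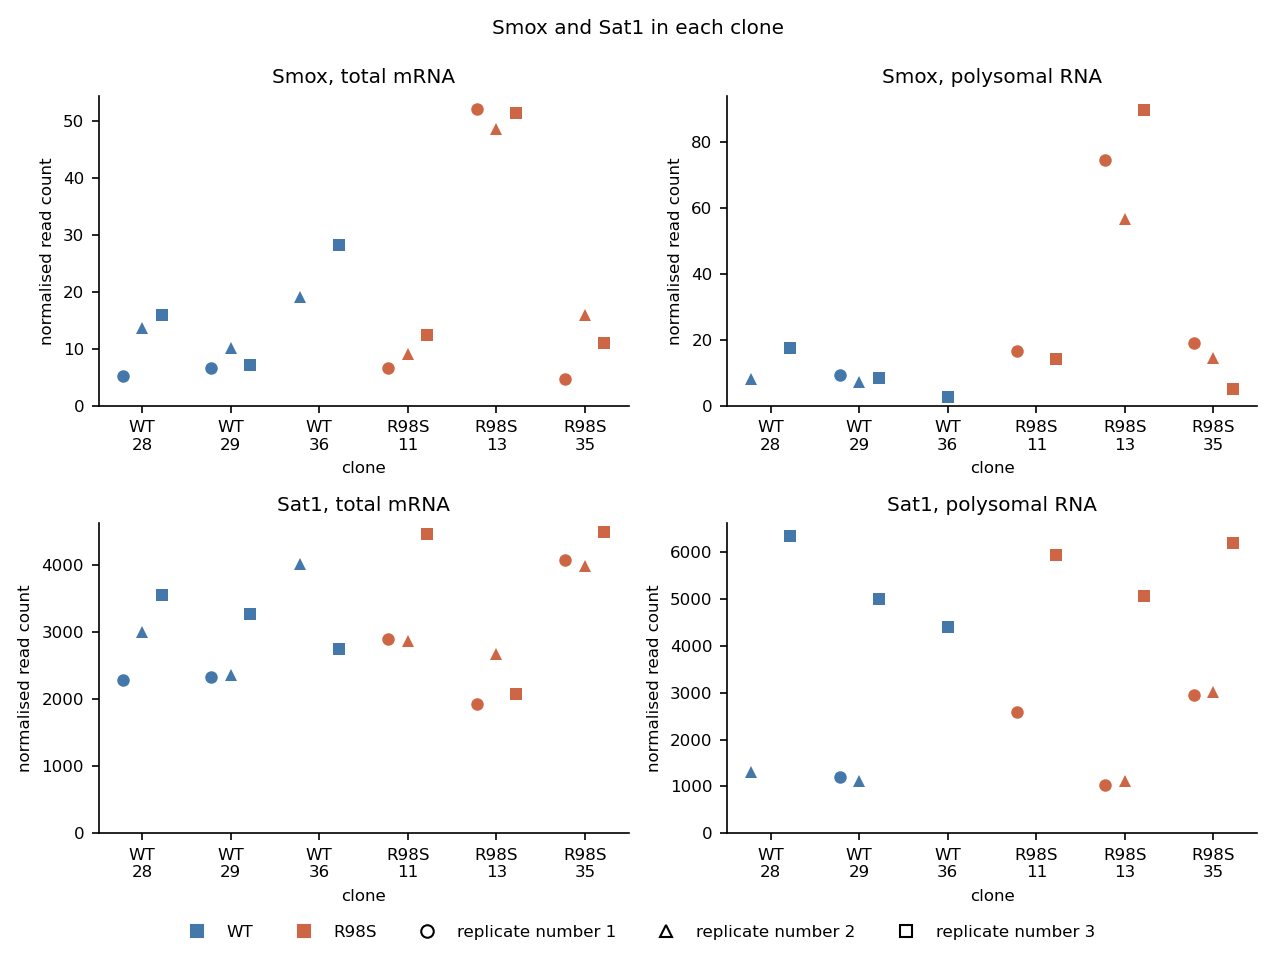
Normalized read count (y axes, linear from 0) of Smox and Sat1 in total mRNA and polysomal RNA for each of the 6 clones (x axes), with the marker shape giving the replicate number. Smox is high in R98S clone 13 only (48.6 to 52.1 in total mRNA), and Sat1 is lowest there among the R98S clones, whereas its polysomal values are highest with number 3 in each of the 5 clones with more than 1 polysomal library.

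The surrounding pathway was described by lists of genes grouped by function, drawn up with earlier results of these data known, and read against 30.3% called in total mRNA and 13.5% in polysomal RNA, or 38.4% and 30.9% where the replicate block is named. Of the paralogs, Amd2 and Azin2 (listed as Adc) were lower in R98S total mRNA, by log2 fold changes of -0.48 and -0.85 (limma adjusted p = 0.0786 and 0.0561). Oaz3, known from the testis, was at most 1.03. The values of Amd2 were small (median 45.4 in WT and 32.2 in R98S) beside those of Amd1, of which it is a near copy. Azin2 was lower still (median 27.95 in WT and 12.4 in R98S), near the filter. Its ranges overlapped, from 16.46 to 43.16 in WT and from 7.015 to 29.58 in R98S. In polysomal RNA Azin2 fell below the filter and was not tested. In the supply of arginine and ornithine 3 of 7 genes were tested in total mRNA. Oat, ornithine aminotransferase (0.36), and Asl, argininosuccinate lyase (0.21), rose, and the arginine transporter Slc7a1 had -0.29 and was not called. None of the 3 was called in polysomal RNA, and with the replicate block Slc7a1 was (-0.60, limma adjusted p = 0.0080).

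In the supply of S-adenosylmethionine and the salvage of methylthioadenosine, the by-product of Srm and Sms, 7 of 8 genes were tested and 1 was called in total mRNA. This was Mtap, methylthioadenosine phosphorylase, which was lower in R98S by a log2 fold change of -0.93 ± 0.25 (limma adjusted p = 0.0111), with medians of 4355 in R98S and 9176 in WT. In polysomal RNA Enoph1, another salvage enzyme, was the 1 called gene (-0.59, limma adjusted p = 0.0746, lower in R98S), and with the replicate block Mtap was called too (-0.64, limma adjusted p = 0.0653). In the list of polyamine breakdown and transport, 4 of 8 were tested and Paox, the oxidase of acetylated polyamines, was called in total mRNA. It was higher in R98S, with 190 to 351 against 140 to 175 in WT (log2 fold change 0.60 ± 0.12, limma adjusted p = 0.00192). These groups did not overlap, as was so for 3.53% of all genes. Slc3a2, Atp13a2 and Atp13a3 had log2 fold changes of -0.15, -0.31 and 0.00 and were not called. In polysomal RNA Paox overlapped between the genotypes, with 202 to 379 in R98S and 113 to 316 in WT. It was called there only with the replicate block (0.60, limma adjusted p = 0.0549).

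Spermidine is also the substrate for hypusine, the modified residue of the translation factor eIF5A. Of 3 tested genes of that step Eif5a was higher in R98S total mRNA (0.57 ± 0.23, limma adjusted p = 0.0832), while Dhps (-0.20) and Dohh (0.02) were not called. In polysomal RNA none of the 3 was called without the block, and Dhps was with it (-0.75, limma adjusted p = 0.000496). Of 10 tested genes of the Myc network, which drives Odc1 and Srm in many cells, Max was higher (0.79, limma adjusted p = 0.000859) and Mycn and Mxd3 were lower (-1.10 and -1.19, limma adjusted p = 0.00907 and 0.00116). In polysomal RNA Mxd3 was the 1 called gene of the 10 (-1.02, limma adjusted p = 0.0463). Myc itself had -0.43 in total mRNA and -0.36 in polysomal RNA (limma adjusted p = 0.123 and 0.128). With the replicate block Myc was called in both (limma adjusted p = 0.0111 and 0.0237). In that fit 6 of the 10 were called in total mRNA, with Mxi1 (-0.33) and Mxd4 (0.45) added, and 4 in polysomal RNA, with Max (0.78) and Mxd4 (0.77) added. In polysomal association the tested genes of the hypusine step lay above the median gene in both genotypes, 3 of 3 in each, with a median of 1.31 in WT and 0.58 in R98S against 0.01 and 0.00 over all genes. Of the S-adenosylmethionine and salvage list 6 of 7 lay above it in WT and 5 of 7 in R98S, where 1 lay below. Of the breakdown and transport list 1 of 4 lay above and 2 below in each genotype, and of the Myc network 2 of 10 lay above and 4 below in WT and 4 above and 3 below in R98S. Over all genes 30.7% and 33.0% were called higher. Slc7a1 lay below it, at -1.31 and -1.43.

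Likeness in level was measured as Pearson's r of log2 values, centred within each fraction, over 31 libraries that share cultures and replicate numbers, among 8819 other genes with a mean of at least 100. It is a description. For Odc1 the highest were Adpgk (0.821), 1110004E09Rik (0.816) and Atad3a (0.815). For Oaz1 they were Ppp4c (0.922), Map2k2 (0.887) and Apitd1 (0.885), and for Azin1 Tmem251 (0.907), Coq10b (0.898) and Pole4 (0.893). Among the genes studied here Azin1 was closest to Oaz2 (0.807) and Odc1 to Srm (0.676), whereas Odc1 and Azin1 had 0.163 and Odc1 and Oaz1 0.326.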

How the data were processed

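The authors prepared stranded poly(A) libraries of total mRNA and pooled polysomal RNA, removed the leading base of each read and rRNA and tRNA reads, aligned to mm10 with TopHat2 (2.0.11), kept primary alignments above a minimum mapping quality and counted reads on exons, so that reads shared by near-identical copies may be lost; HTSeq is named in the submitters' processing notes, and the use of strand is not given in the sources used here. Each deposited value is a normalized signal, the read count of a gene that the authors divided by DESeq2 size factors within each table. Whole reads were recovered for 100% of values (tolerance 0.001). A WT clone 36 total mRNA library with number 1, which the study left out for grouping with R98S, was not analysed here.

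Values were tested as log2(value + 1) where the mean value of a gene reached 10, by limma (3.58.1, R 4.3.3; lmFit, eBayes with trend), two-sided, Benjamini-Hochberg over all genes, called at adjusted p under 0.1. Fold changes are on the log2(value + 1) scale and understate those of low genes. Ratios were log2 polysomal minus log2 total per culture, centred on the median gene. No test used a block unless stated. Same-numbered R98S and WT libraries deviated together (for numbers 1, 2 and 3, total mRNA r was 0.62, 0.549 and 0.481, polysomal r 0.695, 0.666 and 0.867, and ratio r 0.671, 0.538 and 0.812), so the numbers were taken as pairs from the data. Libraries of a clone are repeated cultures, and p-values measure the spread between libraries. Alternatives were pseudocount 5, no filter, TMM scaling, edgeR (4.0.16), DESeq2 (1.42.0), clone means, the 14 matched libraries, uncentred ratios, the block, single numbers, and leaving out libraries, clones or numbers. The fits were tested on simulated data. The genes named are all 9 members, the listed pathway genes and, for Odc1, Oaz1 and Azin1, the 3 most alike. Members and lists were chosen with earlier results of these data known. The closest pair of libraries of a group differed by a chi-square per gene of 4.56, and all were kept.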

Additional observations from a re-analysis of the deposited data

Results flagged for a closer look

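A library far from the rest of its group was found in 5 of 54 groups of values tested, where chance gives about 1 in 20. In polysomal RNA, Amd1 was at 1028 in R98S clone 11 with number 1, and the next R98S library was at 840. In total mRNA, Sms was at 3025 in R98S clone 13 with number 3 (next 2406) and Oaz2 at 1072 in R98S clone 13 with number 2 (next 1330). Among log2 polysomal to total ratios, Oaz1 was at 0.98 in R98S clone 13 with number 3 (next 0.40) and Smox at -2.67 in WT clone 36 with number 3 (next -0.43), the latter on 2 polysomal reads.

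The ratio of Sat1 took opposite sides of the median gene by replicate number. All 4 cultures with number 2 were below it (median -0.84) and all 6 with number 3 above it (median 0.98), a difference that was not tested. Against the median gene within number 3, Sat1 passed limma's test in WT and R98S (adjusted p = 0.0005 and 0.0073), with 79.9% and 73.9% of all genes called. Within number 2 it passed, below, in R98S only (limma adjusted p = 0.0859 against 0.177 in WT), with 49.7% of all genes called in R98S.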

How the results depend on the processing

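The direction of Amd1, Sms, Oaz2 and Azin1 in total mRNA held in all alternatives run, the single numbers included. The number of the 9 genes called in total mRNA (4) was 2 in the 14 matched libraries, 2 with no filter, 0 within number 2, 0 within number 3, and 1 to 5 on leaving out libraries, clones or numbers. Over all genes 21.6%, 14.6%, 2.16% and 9.40% were called in the first 4 of these settings, and 1338 to 3878 genes on leaving out. With no filter 21950 genes were tested in place of 11133. In polysomal RNA (0) it was 6 with the replicate block, 2 by DESeq2, 1 by edgeR, 2 within number 3 (20.9% of all genes), and 0 to 1 on leaving out (5.68% to 19.0%). The value of 1 came without R98S clone 35, its number 3 library, or number 3 (7.68%, 12.4% and 19.0% of all genes). For the ratio difference it stayed at 0. For polysomal against total in WT (6) it was 3 with no filter (34.0% of all genes), 2 uncentred (58.6%), 0 within number 2 (0 genes), and 0 to 6 on leaving out (0 to 64.9%). In R98S (7) it was 2 with no filter (39.1%), 2 uncentred (66.3%), 2 within number 1 (46.3%), and 3 to 8 on leaving out (44.2% to 66.2%). The replicate block, taken as a pairing, changed no other call of the 9 genes between the genotypes.

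Directions that turned were those of estimates that had not passed the test, except those of polysomal against total in R98S for Azin1 (-0.11 within number 1) and Amd1 (uncentred, as given with the R98S values). In total mRNA, log2 differences were 0.29 for Odc1 within number 2, and -0.47 for Srm and -0.083 for Oaz1 within number 1. Leaving out gave -0.22 to 0.15 for Odc1, -0.090 to 0.37 for Sat1 and -0.29 to 0.89 for Smox. In polysomal RNA Oaz1 was 0.057 with the block and 0.20 within number 3, and leaving out gave -0.27 to 0.18 for Oaz1 and -0.20 to 0.68 for Sat1. The ratio difference within number 1, with no test, was 0.70 for Odc1, 0.57 for Srm and 0.42 for Oaz1. It was 0.0016 for Sms within number 2, -0.16 (clone means) and -0.0355 (within number 3) for Sat1, 0.012 (no filter) and 0.17 (within number 3) for Oaz2, and 0.00884 (no filter), 0.10 (block), 0.30 (within number 2) and 0.17 (within number 3) for Azin1. Leaving out moved it from -0.00014 to 0.26 for Amd1, -0.32 to 0.00072 for Sms, -0.29 to 0.40 for Sat1, -0.68 to 0.030 for Oaz1, -0.31 to 0.059 for Oaz2 and -0.24 to 0.22 for Azin1. Against total mRNA in WT, Amd1 was -0.11 with no filter and -0.18 uncentred, and Sat1 -0.11, -0.18 and, within number 2, -0.84, while leaving out gave -0.029 to 0.22 for Amd1, -0.78 to 0.63 for Sat1 and -0.87 to 0.25 for Smox. In R98S the uncentred values were -0.043 for Amd1, -0.13 for Sat1 and -0.036 for Oaz1, and Sat1 was -0.27 within number 1, -0.55 within number 2 and -0.38 to 0.40 on leaving out. Fewer samples were tested within a number or on leaving out, the cause of the other shifts was not tested, and depth limits Smox.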
